A study of Mus musculus with 10 samples.

Results

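The Dlx genes and the GABA-synthesising programme that accompanies them in the ventral forebrain were followed across 10 mouse teratomas through 8 genes: Dlx1, Dlx2, Dlx5, Dlx6, Lhx6, Gad1, Gad2 and Slc32a1. Each gene was represented by the probe set annotated to it alone, and each of the 8 had exactly 1 such probe set, so the rule of taking the brightest probe set left no choice to make. They are 8 of 18820 genes measured on the arrays. The probe sets were thus chosen by annotation and by their mean over all 10 arrays, which uses no difference between genotypes. The genes themselves were proposed with earlier results of these arrays known, so their counts and p-values below are a description of these arrays. Teratomas are tumours of mixed tissues that arise from injected pluripotent cells.

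The tumours grew from mouse embryonic stem cells of the J1 strain (Sv/129) that lacked their own Vhl and carried a human VHL cDNA, which coded for the P81S form in 4 tumours, the R167Q form in 3 and the wildtype protein in 3. All groups share the Vhl-null background, the transgene and the host, female nu/nu mice injected under the skin of both flanks, and tumours were taken at the same size. The labels call the P81S tumours resistant to apoptosis, and the R167Q and wildtype tumours apoptotic. The series compares the 2 mutant forms with the wildtype protein, a tumour suppressor that targets hypoxia-inducible factors for destruction. No label names the promoter of the transgene, the animal behind each tumour or the P81S arrays that share a clone, although the study counts 2 P81S clones with 2 arrays each. A difference between genotypes can therefore not be told apart from a difference between clones. Mouse Vhl, deleted in all groups, read 8.49, 8.77, 8.53 and 8.90 log2 in P81S, 6.83, 6.93 and 7.21 in R167Q and 6.94, 6.95 and 6.85 in wildtype. All 4 P81S arrays were above the other 6 (P81S minus wildtype 1.76 ± 0.15 log2, SE; limma adjusted p = 3.08e-05), and neither the source of this signal nor its part in the values below was tested. P81S replicate 1 stood apart from the other P81S arrays in some markers of skin and of endoderm, described with those lists. Without it 8 of the 8 genes were called higher in P81S than in wildtype and 8 of 8 higher than in R167Q (limma, adjusted p under 0.05), where 18.3% and 14.2% of all genes were called in that direction.

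Dlx genes encode homeodomain transcription factors that work in overlapping pairs, Dlx1 with Dlx2 and Dlx5 with Dlx6, and each pair sits side by side on its chromosome. In the ventral forebrain they direct progenitors towards GABAergic fates and support the migration of interneurons to the cortex. Gad1 and Gad2 encode the enzymes that make GABA from glutamate, and Slc32a1 encodes the carrier that loads GABA into synaptic vesicles. Lhx6 encodes a LIM homeodomain factor of interneurons born in the medial ganglionic eminence, where it acts downstream of Nkx2-1.

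Promoter sequence from RefSeq (assembly GRCm38.p6) was read for 6 of the 8 genes, as 8 windows because Lhx6 has several starts, and the promoters of Dlx5 and Dlx6 were not analysed here. The 250 bases before the annotated start are printed for Dlx2, which encodes a factor of the set, and for Gad1 and Gad2, which encode the enzymes that define it. Capitals mark 2 motifs read on both strands, ACGTG and GCGTG, the cores to which hypoxia-inducible factors bind. Dlx2 lies at chr2:71546755-71547004 on the minus strand, Gad1 at chr2:70561879-70562128 on the plus strand and Gad2 at chr2:22622077-22622326 on the plus strand.
Dlx2: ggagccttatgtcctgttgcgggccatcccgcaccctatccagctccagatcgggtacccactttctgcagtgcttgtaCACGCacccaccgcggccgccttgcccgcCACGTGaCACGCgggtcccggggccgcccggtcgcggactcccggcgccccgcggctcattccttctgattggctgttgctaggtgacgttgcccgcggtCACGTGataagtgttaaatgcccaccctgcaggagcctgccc
Gad1: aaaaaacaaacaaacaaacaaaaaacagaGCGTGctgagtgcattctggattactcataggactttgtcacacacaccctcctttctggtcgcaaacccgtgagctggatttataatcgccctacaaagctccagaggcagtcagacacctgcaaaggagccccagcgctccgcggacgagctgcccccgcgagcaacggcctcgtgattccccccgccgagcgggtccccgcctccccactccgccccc
Gad2: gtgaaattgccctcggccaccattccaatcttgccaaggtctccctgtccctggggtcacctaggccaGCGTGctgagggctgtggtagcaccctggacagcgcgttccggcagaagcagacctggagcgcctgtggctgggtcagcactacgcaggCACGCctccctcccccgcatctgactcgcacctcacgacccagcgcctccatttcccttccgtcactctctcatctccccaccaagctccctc
The Dlx2 window held 2 CACGTG stretches, which begin 142 and 42 bases before the start and read ACGTG on both strands. Of the 8 windows 1 held ACGTG and 5 held GCGTG, against 16.6% and 28.2% of all 32851 windows of this length. In these windows the 2 motifs do not overlap each other. Dlx2 had the window with ACGTG, and the windows of Dlx1 and Slc32a1, which are not printed, held neither motif. TAATTA, the core that many homeodomain proteins recognise and which reads the same on both strands, was in 0 of the 8 windows and in 4.8% of all. These matches describe letters in a short window and carry no information on binding.

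All 8 genes were higher in P81S teratomas than in wildtype teratomas and higher than in R167Q teratomas. At an adjusted p under 0.05 (limma, Benjamini-Hochberg over all 18820 genes), 8 of 8 were called higher in P81S than in wildtype, against 17.2% of all genes called in that direction. The count was again 8 of 8 for P81S against R167Q, against 12.4% of all genes. The 2 comparisons share the P81S arrays. Their median log2 difference was 1.88 in both, where the median over all genes was 0.01 and 0.02. In R167Q against wildtype 0 of 8 were called, where 0.0638% of all genes were called higher and 0.0266% lower. At an unadjusted p under 0.05 (limma) the count was again 0 of 8, against 9.73% of all genes. The 4 P81S arrays lay wholly above the 3 wildtype arrays for 7 genes (19.9% of all genes did so), Lhx6 being the exception, and above the 3 R167Q arrays for all 8 (16.5% of all genes).

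**Figure D1:**
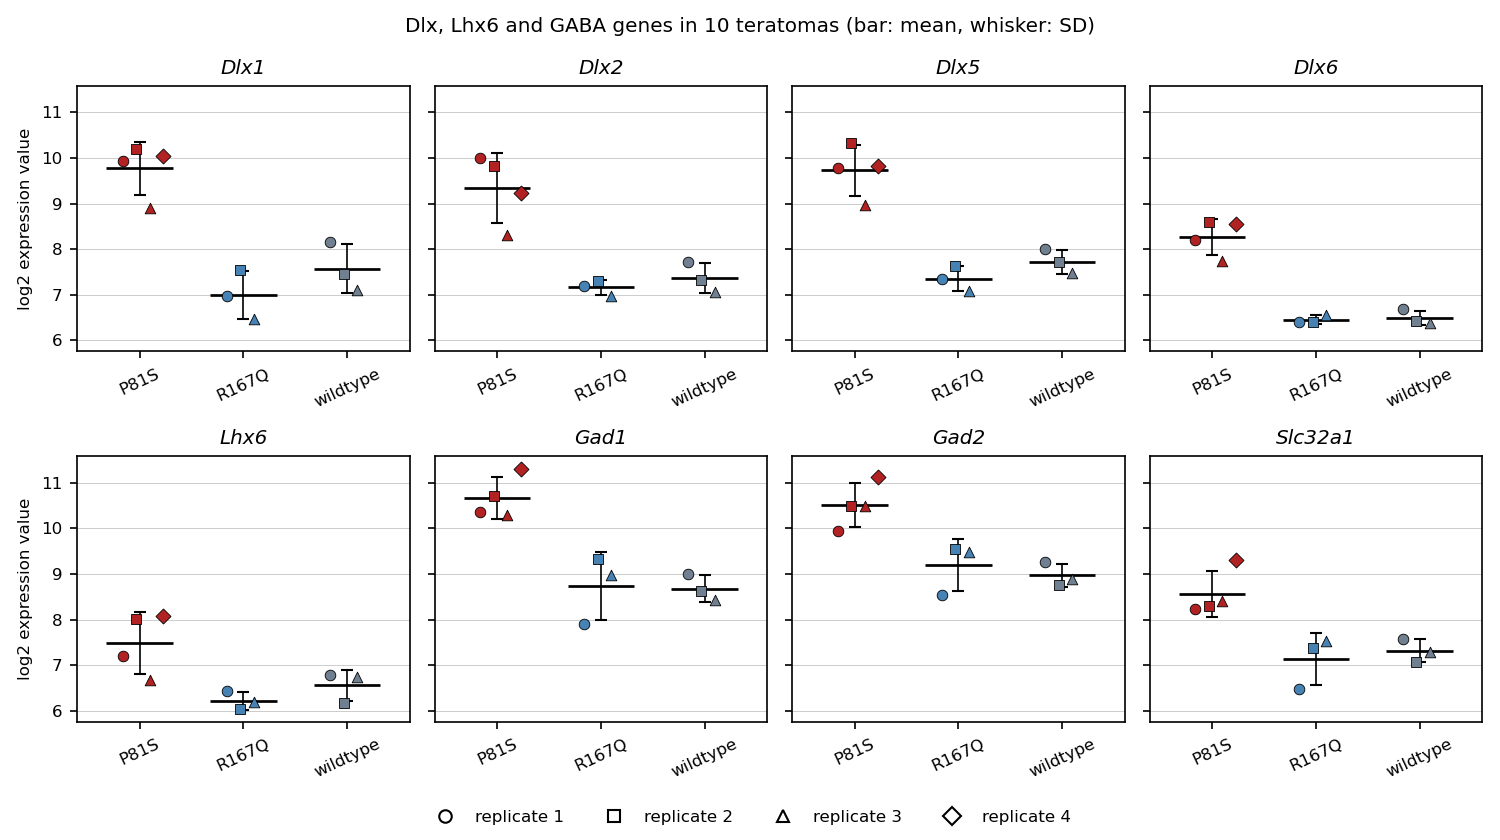
Deposited log2 expression values of Dlx1, Dlx2, Dlx5, Dlx6, Lhx6, Gad1, Gad2 and Slc32a1 (vertical axis) in 4 P81S, 3 R167Q and 3 wildtype teratomas, with 1 point per array, its shape giving the replicate number, a bar at the group mean and whiskers of 1 SD. P81S points stand above the others in each panel except that of Lhx6, where P81S replicate 3 at 6.66 falls among the wildtype values.

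Dlx1, which acts with Dlx2 at the start of interneuron specification, had the largest differences of the set. It read 9.93, 10.19, 8.91 and 10.05 log2 in P81S replicates 1 to 4, against 6.97, 7.54 and 6.47 in R167Q replicates 1 to 3 and 8.16, 7.46 and 7.10 in wildtype replicates 1 to 3. No P81S array came down to the level of another genotype, and replicate 3 was the lowest of the 4. The fold of P81S over wildtype was 4.59 (log2 2.20 ± 0.36, SE; adjusted p = 0.000778) and that over R167Q was 6.87 (2.78 ± 0.36; adjusted p = 0.000842).

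Dlx2, its neighbour on chromosome 2, read 9.99, 9.82, 8.31 and 9.24 log2 in P81S replicates 1 to 4, against 7.19, 7.31 and 6.98 in R167Q and 7.71, 7.33 and 7.06 in wildtype replicates 1 to 3. P81S replicates 1 and 2 were the high arrays and replicate 3 again the low one, with a gap of more than 1 log2 unit between it and replicate 1. The P81S mean was 9.34 ± 0.76 log2 (SD, n = 4), against 7.16 ± 0.17 in R167Q (SD, n = 3) and 7.37 ± 0.33 in wildtype (SD, n = 3). The difference from wildtype was 1.97 ± 0.34 log2 (adjusted p = 0.00119) and that from R167Q 2.18 ± 0.34 (adjusted p = 0.0017).

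Dlx5 and Dlx6, which follow Dlx1 and Dlx2 in the forebrain and also pattern the jaw and bone, were both higher in P81S. Dlx5 read 9.79, 10.33, 8.98 and 9.83 log2 in P81S replicates 1 to 4, against 7.35, 7.62 and 7.08 in R167Q and 7.99, 7.71 and 7.47 in wildtype. P81S exceeded wildtype 4.02-fold (log2 2.01 ± 0.27; adjusted p = 0.000285) and R167Q 5.21-fold (2.38 ± 0.27; adjusted p = 0.000617). The array with the highest Dlx5 was P81S replicate 2 and the lowest P81S array was replicate 3, as for Dlx1.

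Dlx6 read 8.20, 8.60, 7.73 and 8.54 log2 in P81S replicates 1 to 4, against 6.40, 6.40 and 6.56 in R167Q and 6.67, 6.42 and 6.38 in wildtype. The R167Q and wildtype arrays spanned a narrow band, not far above 5.98 log2, the median of the 6616 unannotated probe sets that precede the first annotated one and are not a measured background. Signal over background is unknown for these values, so the fold of 3.43 in P81S against wildtype (log2 1.78 ± 0.21) is a ratio of deposited values. It had the smallest adjusted p of the set in both comparisons, 0.000116 against wildtype and 0.000583 against R167Q.

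Among the enzymes of GABA synthesis, Gad1 read 10.35, 10.72, 10.30 and 11.32 log2 in P81S replicates 1 to 4, against 7.90, 9.34 and 8.97 in R167Q and 9.00, 8.63 and 8.42 in wildtype. Here replicate 4 was the high P81S array, and R167Q replicate 1 was the low array of all 10. The rise of Gad1 in P81S came to 3.98-fold over wildtype (log2 1.99 ± 0.33; adjusted p = 0.000958) and 3.83-fold over R167Q (1.94 ± 0.33; adjusted p = 0.00255).

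Gad2, the form concentrated at nerve terminals, read 9.95, 10.50, 10.49 and 11.13 log2 in P81S replicates 1 to 4, against 8.53, 9.55 and 9.48 in R167Q and 9.25, 8.77 and 8.89 in wildtype. P81S replicate 1 was the array nearest to those of R167Q, whose replicates 2 and 3 stood above all 3 wildtype arrays. Its difference was 1.55 ± 0.29 log2 against wildtype (adjusted p = 0.00197) and 1.33 ± 0.29 against R167Q (adjusted p = 0.00837). Slc32a1, the vesicular carrier, read 8.24, 8.31, 8.41 and 9.31 log2 in P81S, against 6.47, 7.37 and 7.54 in R167Q and 7.58, 7.08 and 7.28 in wildtype. Replicate 4 was again the high P81S array and R167Q replicate 1 the low one. Slc32a1 in P81S stood 2.39-fold above wildtype (log2 1.25 ± 0.31; adjusted p = 0.00833) and 2.71-fold above R167Q (1.44 ± 0.31; adjusted p = 0.00704).

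Lhx6 had the weakest call. It read 7.21, 8.01, 6.66 and 8.08 log2 in P81S replicates 1 to 4, against 6.42, 6.03 and 6.20 in R167Q and 6.77, 6.16 and 6.73 in wildtype. P81S replicate 3 was below wildtype replicates 1 and 3, so those groups overlapped. The difference was 0.93 ± 0.32 log2 against wildtype (1.91-fold; adjusted p = 0.0442) and 1.27 ± 0.32 against R167Q (adjusted p = 0.0163). The call against wildtype ended in 14 of 26 alternative settings, among them the omission of P81S replicate 2 (adjusted p = 0.101) or 4 (0.105), and of any wildtype array (0.0663 without replicate 1, 0.17 without 2, 0.0781 without 3). It also ended without any 1 of the R167Q arrays, which enter only through the shared estimate of spread (0.056 to 0.0605).

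**Figure D2:**
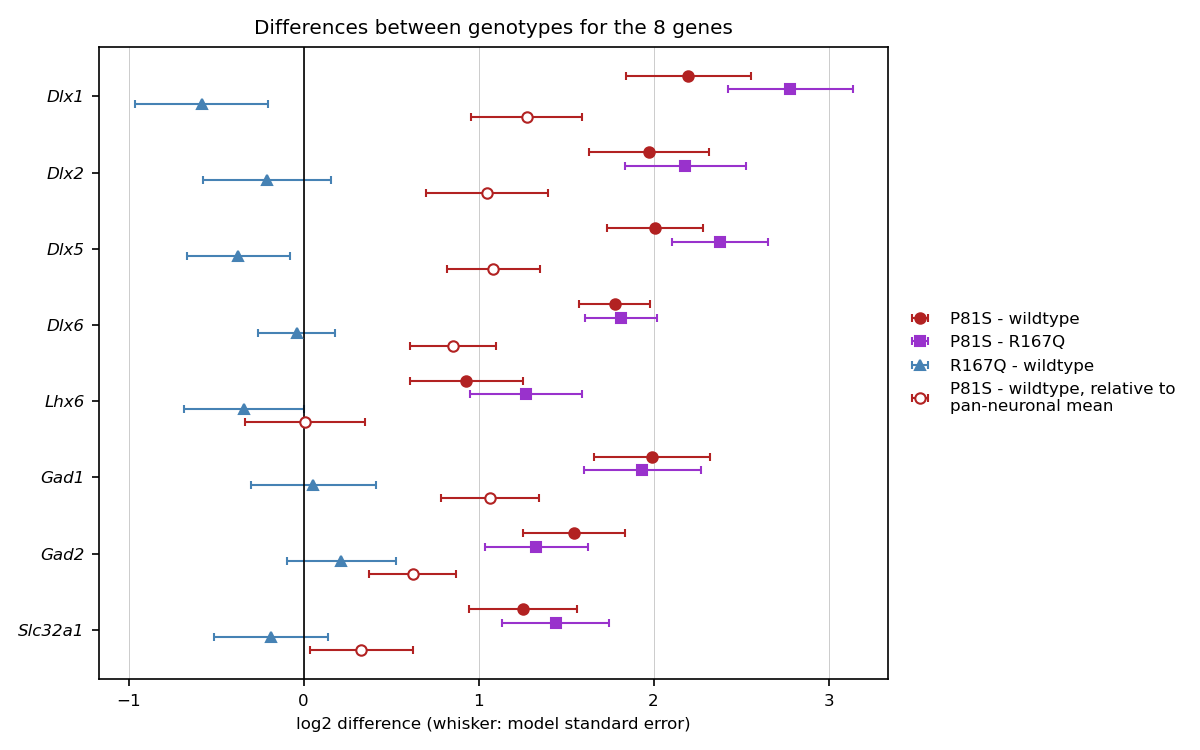
Log2 differences between genotypes (horizontal axis) for each of the 8 genes, with whiskers of 1 model standard error. Filled red circles are P81S minus wildtype, purple squares P81S minus R167Q, blue triangles R167Q minus wildtype, and open circles P81S minus wildtype after the mean of 14 pan-neuronal genes was subtracted from each array. Red circles run from 0.93 for Lhx6 to 2.20 for Dlx1, blue triangles from -0.58 to 0.22, and the open circle of Lhx6 lies at 0.01.

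None of the 8 genes passed the test between R167Q and wildtype teratomas. The difference, R167Q minus wildtype, was negative for 6 of 8 and lay between -0.58 log2 for Dlx1 and 0.22 for Gad2, with adjusted p of 0.664 to 0.98. These group sizes leave room for moderate differences. The 95% interval ran from -1.42 to 0.26 log2 for Dlx1, from -0.52 to 0.44 for Dlx6, from -0.73 to 0.84 for Gad1 and from -0.91 to 0.54 for Slc32a1. Of the wildtype arrays, replicate 1 was the highest for all 8 genes, and of the R167Q arrays, replicate 1 was the lowest for 4 genes, among them Gad1, Gad2 and Slc32a1.

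The Dlx genes and the GABA genes did not rise by equal amounts in each P81S tumour. Set against the wildtype mean, the 4 Dlx genes averaged 2.19 log2 higher in P81S replicate 1 and 2.45 in replicate 2, where Gad1, Gad2 and Slc32a1 averaged 1.19 and 1.52. In replicate 3 the Dlx genes averaged 1.19 and the GABA genes 1.41. In replicate 4 they averaged 2.13 and 2.26. The Dlx genes thus led by 1.00 and 0.93 log2 in replicates 1 and 2 and trailed by 0.22 and 0.14 in replicates 3 and 4. In R167Q replicates 1 to 3 the Dlx minus GABA value was 0.38, -0.50 and -0.86, and in wildtype replicates 1 to 3 it was 0.06, 0.10 and -0.16. The spread within R167Q was thus as wide as that within P81S. This split was noticed in the values and was not tested.

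**Figure D3:**
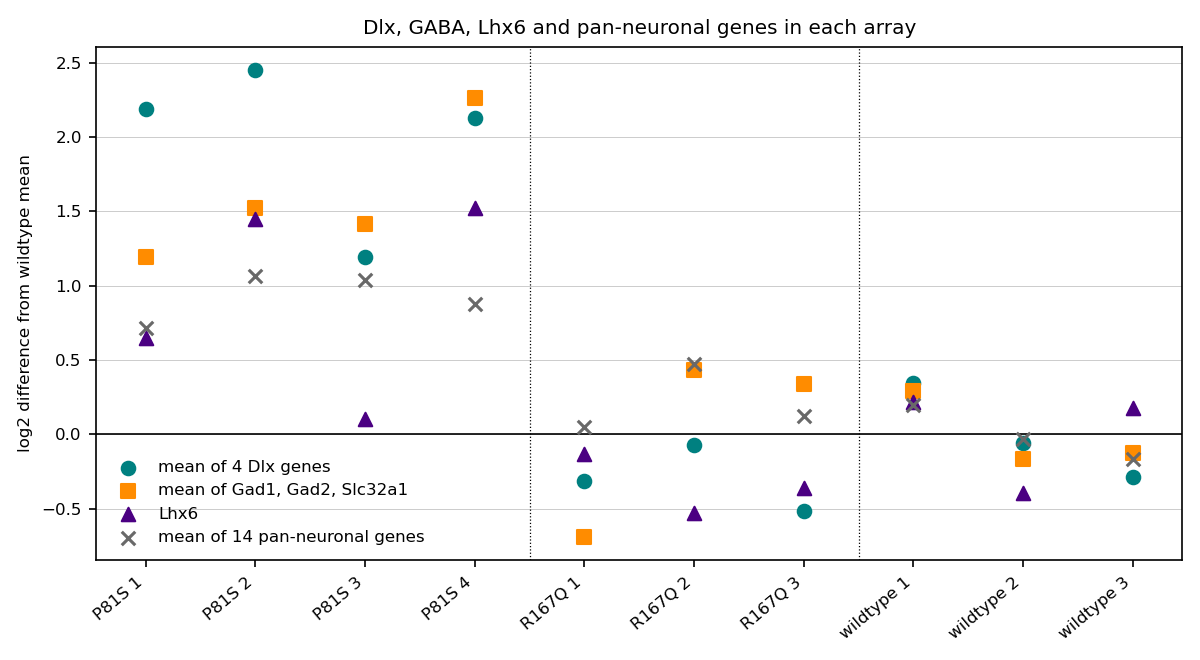
Log2 difference from the wildtype mean (vertical axis) in each of 10 arrays, for the mean of 4 Dlx genes (circles), the mean of Gad1, Gad2 and Slc32a1 (squares), Lhx6 (triangles) and the mean of 14 pan-neuronal genes (crosses). In P81S replicates 1 and 2 the circles, at 2.19 and 2.45, stand above the squares, and in replicate 3 the triangle lies near 0 at 0.11.

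Pan-neuronal genes were higher in the same arrays. Of 14 measured pan-neuronal genes, 12 rose in P81S against wildtype and 0 fell, with a median log2 difference of 0.82 (0.01 over all genes). Beside this count and those of the lists below stand the 17.2% of all genes called higher and the 17.5% called lower. Syn1 and Syp, which encode synaptic vesicle proteins, rose by 1.58 ± 0.15 and 1.74 ± 0.19 log2, Map2 of dendrites by 0.85 ± 0.09 and the adhesion gene Ncam1 by 0.83 ± 0.09 (adjusted p of 4.23e-05 to 0.000113). The array mean of the list was 11.25 to 11.60 log2 in P81S, 10.58 to 11.01 in R167Q and 10.37 to 10.73 in wildtype. In bulk tumour RNA, more cells of a type and more RNA per cell cannot be told apart.

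To set the 8 genes against this general rise, the pan-neuronal mean of each array was subtracted from every gene before the fit, a setting chosen after the data were seen. It moves the median of all genes to -0.91 log2 for P81S against wildtype. With that shift most genes were called lower in both P81S comparisons, which makes the adjustment of p milder and the share called higher smaller. Adjusted p and shares of this setting are therefore not comparable with those of the main fit. The 14 pan-neuronal genes themselves differed between P81S and wildtype by 0.14 to 1.74 log2, so the excess depends on which of them are taken. They were also brighter than the 8 genes, with array means of 10.37 to 11.60 log2 against 7.15 to 9.69. The effect of this on the differences was not tested. Relative to the pan-neuronal genes, 6 of the 8 were still called higher in P81S than in wildtype, against 2.6% of all genes. The Dlx genes kept 1.28 ± 0.32 log2 (Dlx1; adjusted p = 0.00246), 1.05 ± 0.35 (Dlx2; 0.0133), 1.08 ± 0.26 (Dlx5; 0.00217) and 0.85 ± 0.25 (Dlx6; 0.0061). Gad1 kept 1.07 ± 0.28 (adjusted p = 0.00337) and Gad2 0.62 ± 0.25 (0.0319). Slc32a1 did not pass, at 0.33 ± 0.30 (adjusted p = 0.307), nor did Lhx6, at 0.01 ± 0.34 (0.985). Against R167Q 7 of 8 remained called (1.95% of all genes higher), and Lhx6 did not pass (0.56 ± 0.34; adjusted p = 0.149). The mean of the 8 genes, less the pan-neuronal mean and both set against wildtype, was 0.91, 0.91, 0.10 and 1.23 log2 in P81S replicates 1 to 4, so that replicate 3 showed almost none of the excess.

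The remaining Dlx family did not follow as a whole. Dlx3 and Dlx4, the linked pair of skin, placenta and bone on chromosome 11, did not pass against wildtype (0.22 ± 0.14 and 0.28 ± 0.14 log2; adjusted p = 0.267 and 0.153). Dlx4 was called against R167Q (0.45 log2; adjusted p = 0.0414). Its P81S arrays lay wholly above those of wildtype, as in 19.9% of all genes. Dlx4 averaged 6.35 log2 in P81S, 5.90 in R167Q and 6.06 in wildtype, near 5.98, the median of the unannotated block. A change in Dlx4 could therefore be missed. Dlx1as, an RNA antisense to Dlx1, read 6.44, 7.44, 5.65 and 6.08 log2 in P81S, against 5.35, 5.44 and 4.50 in R167Q and 5.35, 4.98 and 4.73 in wildtype. It rose by 1.38 ± 0.38 log2 against wildtype (adjusted p = 0.0154), and, with no probe sequences used here, signal shared with Dlx1 cannot be separated. Its means of 5.10 in R167Q and 5.02 in wildtype were under the 5.98 median of the unannotated block, so the size of its rise is uncertain. Dlx6os1 and Dlx6os2 were not analysed here.

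Regulators of the ventral telencephalon, a tissue in which the Dlx genes act, changed in P81S in both directions. Of the 17 on the arrays 7 rose, 1 fell and the other 9 were not called (median 0.46 log2). Of all genes, 17.2% were called higher and 17.5% lower in this comparison. Nkx2-1, which specifies the medial ganglionic eminence, read 9.23, 9.35, 7.11 and 7.89 log2 in P81S replicates 1 to 4, against 6.20, 5.90 and 5.70 in R167Q and 6.31, 6.41 and 5.49 in wildtype. It rose by 2.33 ± 0.49 log2 (adjusted p = 0.00343), and replicates 1 and 2 were its high arrays, as they were for Dlx2. Lhx6 was highest in P81S replicates 4 and 2, at 8.08 and 8.01. Nkx2-1 was named after its values were seen, so its pattern is no support for the split between Dlx and GABA genes. Its means of 5.93 in R167Q and 6.07 in wildtype were near the 5.98 median of the unannotated block. The size of its rise is therefore uncertain. Nkx2-1 is also a factor of other tissues, among them lung and thyroid. Sp9, a zinc finger factor of interneuron precursors, rose by 1.09 ± 0.16 log2 (adjusted p = 0.000395), Six3, which patterns the anterior forebrain and eye, by 1.32 ± 0.24 (0.00143), and Isl1, a factor of striatal and motor neurons, by 1.44 ± 0.26 (0.00148). Six3 averaged 5.72 log2 in R167Q and 6.07 in wildtype, near the same median, so the size of its rise is also uncertain. Gbx2, which helps set the midbrain-hindbrain boundary and also marks stem cells, fell by 1.01 ± 0.15 (adjusted p = 0.000389). Gsx2, an upstream activator of Dlx genes in the lateral ganglionic eminence, differed from wildtype by -0.09 log2 (adjusted p = 0.628). It averaged 5.95 log2 in P81S, 5.84 in R167Q and 6.05 in wildtype, near the 5.98 median of the unannotated block. A change in Gsx2 could therefore be missed.

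Genes of GABA handling other than the members rose in 8 of 13 cases and fell in 1, with a median of 0.53 log2. Slc12a5, the potassium-chloride carrier that makes GABA inhibitory in mature neurons, rose by 1.82 ± 0.22 log2 (adjusted p = 0.000164). Abat, which breaks GABA down, rose by 0.99 ± 0.15 (adjusted p = 0.000618), the glutamine carrier gene Slc38a1 by 0.62 ± 0.10 (0.000711) and the GABA uptake carrier gene Slc6a11 by 1.00 ± 0.19 (0.00226). The gene of this list that fell was Slc6a5, the glycine carrier of hindbrain and spinal inhibitory neurons (-1.20 ± 0.43; adjusted p = 0.0494).

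Markers of interneuron classes were divided. In P81S against wildtype 8 of 16 rose, 1 fell and 7 did not pass (median 0.55 log2). Calb2, the calretinin gene, read 11.53, 11.94, 12.01 and 11.74 log2 in P81S, against 9.98, 10.43 and 10.10 in R167Q and 9.55, 9.79 and 9.22 in wildtype, a rise of 2.28 ± 0.16 log2 (adjusted p = 1.69e-05). Nos1, which encodes neuronal nitric oxide synthase, rose by 1.41 ± 0.17, the extracellular guide gene Reln by 1.20 ± 0.16 and the tachykinin gene Tac1 by 1.90 ± 0.27 (adjusted p of 0.000133 to 0.000406). Lamp5, a marker of a class of cortical interneurons, was the gene that fell (-1.41 ± 0.41; adjusted p = 0.0199). Sst and Pvalb, markers of classes in which Lhx6 acts, did not pass (0.15 ± 0.34 and 0.46 ± 0.64 log2; adjusted p = 0.774 and 0.637), while Chodl, which marks a subclass of Sst interneurons together with Nos1, rose by 0.64 ± 0.21 (adjusted p = 0.0358). Sst read 9.75, 10.50, 11.10 and 11.10 log2 in P81S, against 9.30, 10.53 and 9.87 in R167Q and 10.55, 10.64 and 10.19 in wildtype, with the groups overlapping. Many of these markers are also used by neurons other than cortical interneurons.

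Genes of interneuron maturation and migration gave 10 higher, 1 lower and 8 not called of 19 (median 0.55 log2). The semaphorin receptor gene Nrp1 rose by 1.10 ± 0.13 log2 and the neuregulin receptor gene Erbb4 by 1.02 ± 0.14, while the nuclear receptor gene Nr2f2 and Maf rose by 0.85 ± 0.14 and 0.85 ± 0.15 (adjusted p of 0.000121 to 0.00157). Cxcr4, the chemokine receptor that guides migrating interneurons and is used by many other cells, was the gene that fell (-0.41 ± 0.13; adjusted p = 0.0313).

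Regulators of GABAergic neurons outside the forebrain fell more often than they rose. In P81S against wildtype 5 of the 15 genes fell, 1 rose and the other 9 were not called (median -0.05 log2). Of all genes, 17.5% were called lower and 17.2% higher. Pax8, a factor of hindbrain and spinal inhibitory neurons and of kidney and thyroid, fell by 1.73 ± 0.19 log2 (adjusted p = 9.1e-05). Gata2, which selects GABAergic fate in the midbrain and also acts in blood cells, read 7.67, 7.84, 8.05 and 7.47 log2 in P81S, against 8.69, 8.74 and 8.50 in R167Q and 9.60, 9.24 and 8.96 in wildtype, a fall of 1.51 ± 0.18 (adjusted p = 0.000133). Neurog1 fell by 0.80 ± 0.19 log2, and Zfpm2 rose by 0.68 ± 0.18 (adjusted p = 0.00758 and 0.0145). Ptf1a, the determinant of cerebellar and spinal GABAergic neurons, read 5.07 log2 on average in P81S, 4.98 in R167Q and 5.10 in wildtype, under the 5.98 median of the unannotated block.

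Some genes of glutamatergic neurons rose as well. Of 17 genes of glutamatergic neurons and the dorsal forebrain, 7 rose, 1 fell and 9 did not pass (median 0.76 log2). Slc17a6, a vesicular glutamate carrier gene, rose by 2.07 ± 0.17 log2 (adjusted p = 2.53e-05), Grm2, a glutamate receptor gene, by 1.85 ± 0.15 (2.53e-05) and Tbr1, a factor of early cortical neurons, by 1.84 ± 0.27 (0.00044). Tbr1 averaged 5.63 log2 in R167Q and 5.37 in wildtype, under the 5.98 median of the unannotated block, so the size of its rise is uncertain. Slc17a8, another vesicular glutamate carrier gene, fell by 1.36 ± 0.27 (adjusted p = 0.0027). Fezf2, a factor of the forebrain and of deep cortical layers that was added for its pattern after its values were seen, read 8.80, 8.95, 7.00 and 7.36 log2 in P81S replicates 1 to 4, against 5.81, 6.16 and 5.72 in R167Q and 6.43, 5.95 and 6.07 in wildtype (1.88 ± 0.43 over wildtype; adjusted p = 0.00577). Since it was picked for its high values in replicates 1 and 2, it is no support for the split between Dlx and GABA genes. Fezf2 averaged 5.90 log2 in R167Q and 6.15 in wildtype, near the 5.98 median, so the size of its rise is uncertain too.

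**Figure D4:**
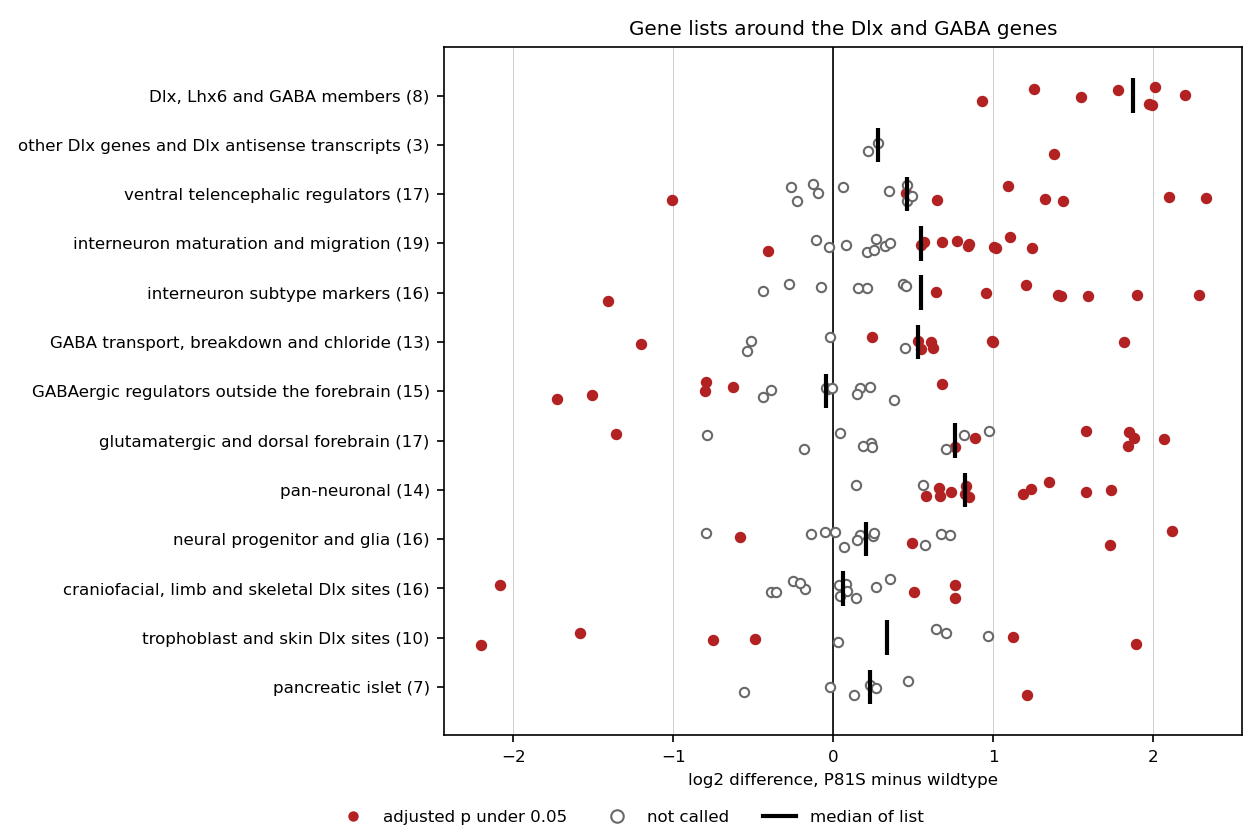
Log2 difference, P81S minus wildtype (horizontal axis), for each measured gene of 13 gene lists, with the number of genes in brackets. Red points passed an adjusted p under 0.05, open points did not, and vertical bars are list medians, from 1.88 for the 8 members down to -0.05 for GABAergic regulators outside the forebrain.

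Cells other than neurons use Dlx or Gad genes too, and their markers were read in the same arrays. Among 16 genes of craniofacial, limb and skeletal sites, 3 rose, near the 17.2% of all genes called higher, and 1 fell (median 0.06 log2). The list mean was 6.93 to 7.20 log2 in P81S, 7.10 to 7.26 in R167Q and 7.05 to 7.17 in wildtype. Alpl, which bone shares with stem cells, fell by 2.09 ± 0.35 (adjusted p = 0.00103), and Prrx1, Sox9 and Msx1 rose by 0.50 to 0.76 log2. Among 10 trophoblast and skin genes 2 rose and 4 fell. The list mean was 8.01 log2 in P81S replicate 1 and 6.40 to 6.73 in the other P81S arrays, 6.69 to 7.09 in R167Q and 6.77 to 7.03 in wildtype. In P81S replicate 1 the keratin genes Krt5 and Krt14 read 11.77 and 10.40, where P81S replicates 2 to 4 had Krt5 at 7.31 to 8.78 and Krt14 at 6.31 to 7.37. Lor and Krt1 of skin rose, and Esx1, Tpbpa, Hand1 and Cdx2 fell. Among 7 pancreatic islet genes 1 rose, Chga, which neurons also express. Ins2, Pdx1 and Iapp averaged 5.05 to 5.41 log2 in P81S, 4.82 to 5.48 in R167Q and 4.92 to 5.14 in wildtype, under the 5.98 median. Above it were Nkx6-1, at 8.29, 8.81 and 8.85 in P81S, R167Q and wildtype, and Ppy, at 6.70, 6.49 and 6.47. Gcg averaged 6.08, 5.79 and 5.62.

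Neural progenitor and glia genes gave 3 higher, near the 17.2% of all genes called higher, and 1 lower of 16 (median 0.21 log2). The astrocyte glutamate carrier gene Slc1a2 rose by 2.12 ± 0.16 log2, Gfap by 1.73 ± 0.35 and Slc1a3 by 0.50 ± 0.16, while Sox3 fell by 0.58 ± 0.14 (adjusted p of 2.03e-05 to 0.0338). Markers of the germ layers of a teratoma were measured for 12 genes. Of these Acta2, Epcam and Foxa2 averaged over 8 log2 in each genotype, and Vil1 and Cdx2 averaged under 5.98 log2 in each. P81S replicate 1 stood apart here too: Ttr, a gene of liver, yolk sac and choroid plexus, read 11.39 log2 in it and 6.04 to 6.90 in the other P81S arrays, and Vil1 read 6.74 in it and 5.18 to 5.43 in the others. The list mean was 8.67 log2 in P81S replicate 1 and 6.95 to 7.61 in the other P81S arrays, 7.56 to 7.87 in R167Q and 7.74 to 7.75 in wildtype. In P81S against wildtype 0 of the 12 rose and 3 fell (Pecam1, Afp and Cdx2). In R167Q against wildtype no gene of any list was called. The part of these other tissues in the values of the 8 genes was not tested.

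Position on the chromosome was examined because 6 of the 8 genes lie on chromosome 2 and the other 2 on chromosome 6. The median difference of P81S from wildtype was 0.02 log2 over 1632 genes of chromosome 2 and 0.03 over 1049 genes of chromosome 6, with 16.4% and 16.6% of genes called higher. The 2 nearest measured genes on each side of each locus, in the gene order of RefSeq assembly GRCm38.p6, numbered 24, of which 6 rose, 5 fell and 13 did not pass (median -0.11 log2). Beside Dlx1 and Dlx2, the histone acetyltransferase gene Hat1 fell by 1.67 ± 0.15 log2 (adjusted p = 3.98e-05), Pdk1 fell by 0.39 ± 0.09 (0.00707), and Metap1d and Itga6 did not pass. Beside Dlx5 and Dlx6, Tac1 rose and the mitochondrial carrier gene Slc25a13 fell by 1.86 ± 0.32 (adjusted p = 0.00107). Near Gad2, Gpr158 rose by 1.81 ± 0.24 (adjusted p = 0.000231). Myo3a, which lies between Gpr158 and Gad2, did not pass (-0.23 ± 0.14, adjusted p = 0.252). Its means were low, 4.07 log2 in P81S and 4.30 in wildtype. These neighbours were chosen after the values of the 8 genes were seen.

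The genes most like the set were found by correlating each of 18812 other genes with the mean of the 8 standardised profiles over the 10 arrays, which describes mainly the gap between P81S and the other arrays. The 6 highest values belonged to Neurl1b (r = 0.989), Gpsm1 (0.987), Prokr2 (0.981), Gfod2 (0.981), 1190005I06Rik (0.978) and Kif3b (0.976), and the members themselves ranged from 0.895 to 0.987. Prokr2, a receptor for prokineticins that guide olfactory bulb interneurons, had the largest difference of the 6. It read 8.88, 8.98, 8.44 and 9.57 log2 in P81S, against 7.11, 7.67 and 7.00 in R167Q and 7.45, 7.29 and 7.29 in wildtype (1.62 ± 0.25; adjusted p = 0.000532). Neurl1b, a ubiquitin ligase gene of Notch ligand traffic, rose by 1.25 ± 0.18 log2 (adjusted p = 0.000385). Gpsm1, Gfod2, 1190005I06Rik and Kif3b differed by 0.44 to 0.73 log2. In total 109 genes outside the set had r above 0.95.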

How the data were processed

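Expression was measured in 10 teratomas, each on its own 1-colour Affymetrix array. The authors deposited log2 expression values, 1 per probe set and array; per the submitters' processing notes RMA and Partek were used, with no version, role or setting given. RMA ordinarily corrects background and sets arrays to 1 distribution, so each difference is relative to the other transcripts of its array. Array medians over 35556 probe sets were 6.97 to 7.11 log2, and pairs of same-group arrays had r of 0.966 to 0.993 across genes, which are not independent replicates. No depth applies to arrays, and their number limits the precision.

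Gene names came from the platform's annotation, checked by Entrez number in RefSeq (GRCm38.p6; 21185 of 21218 matched). Of the 28940 probe sets outside the leading unannotated block, 21218 had 1 gene, 1881 several and 5841 none listed. For each of 18820 genes the probe set of highest mean was used; 1386 genes had a choice. All 10 arrays entered a model with 3 group means in limma 3.58.1 (R 4.3.3; lmFit, eBayes with variance trend, two-sided), on 7 residual and 3.85 prior degrees of freedom. P-values were adjusted by Benjamini-Hochberg over all genes of a contrast. Errors of differences are model standard errors. The fit was tested on simulated data.

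The members, lists and tests were chosen with earlier results of these data known. Named genes are the 8 members, from each list the 4 of smallest p at most, and the 6 of like pattern. Others were added after their values were seen (Nkx2-1, Krt5, Krt14, Pvalb, Sst, Chodl, Lamp5, Ttr, Gsx2, Ptf1a, Fezf2, Slc6a5, Cxcr4, Acta2, Epcam, Foxa2, Vil1, Ins2, Pdx1, Iapp, Vhl, genes that complete a count, genes flagged for a closer look, and neighbours of the loci). No label says that tumours came from separate animals, so p-values measure only the spread between these samples. Replicate numbers were checked for pairing: deviations of same-numbered arrays correlated above 0.1 in 2 of 9 pairs (-0.28 to 0.21), so they were not treated as pairs. Alternatives were quantile normalization, median centring, leaving out dim genes, and other probe set choices and variance models. Array weights, a replicate block and each array left out were also used. Since the true clones are unknown, each possible pairing of the 4 P81S arrays into 2 clones was tried as a random block. The estimated correlations within blocks were 0.047, -0.23 and -0.029. Clones within R167Q and wildtype were not modelled. 0 value columns were left out.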

Additional observations from a re-analysis of the deposited data

Results flagged for a closer look

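The 211 genes checked were the members, every measured gene of the lists, the genes of like pattern, the neighbours of the loci and Vhl. Dixon's ratio of the gap to the range, over the 4 P81S arrays, passed its limit for 13 of them (6.16%), where chance alone flags about 1 in 20 groups. Of the 13, 9 were in P81S replicate 1, 2 in replicate 2, 0 in replicate 3 and 2 in replicate 4. In replicate 1 the skin keratin genes Krt1 and Krt10 read 8.57 and 9.46 log2, where the other P81S arrays had Krt1 at 6.62 to 6.88 and Krt10 at 6.54 to 6.72. The endoderm genes Afp and Vil1 read 7.43 and 6.74 there, and Ttr, a gene also of choroid plexus, read 11.39. The other P81S arrays had Afp at 5.43 to 5.62, Ttr at 6.04 to 6.90 and Vil1 at 5.18 to 5.43. Nrp1 at 10.33 and Zfpm1 at 8.91 were also high in replicate 1 (others 9.91 to 9.97 and 8.37 to 8.45), and Fabp7 at 13.67 and Sdhaf3 at 8.62 were low (others 13.76 to 13.78 and 8.98 to 9.02). In replicate 2 Prox1 was high at 9.12 (others 8.52 to 8.56) and Alx1 low at 5.68 (others 5.83 to 5.85). In replicate 4 Slc32a1 was high at 9.31 (others 8.24 to 8.41) and Nrp2 low at 9.88 (others 10.40 to 10.45). The difference of Slc32a1 from wildtype without replicate 4 stayed called, at 1.01 log2 (adjusted p = 0.0141).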

How the results depend on the processing

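The 8 genes kept their direction in P81S against wildtype and against R167Q under all 26 alternatives, and 5 of them (Dlx1, Dlx2, Dlx5, Dlx6 and Gad1) kept their calls in both comparisons. Lhx6 lost its call in 14 of 26 against wildtype (adjusted p 0.00698 to 0.985) and 5 of 26 against R167Q, Gad2 against R167Q in 1 (P81S replicates 3 and 4 both left out, adjusted p = 0.0607) and Slc32a1 against wildtype in 1 (pan-neuronal mean subtracted); the cause was not tested. With a replicate block 7, 7 and 0 genes of the 8 were called in P81S against wildtype, P81S against R167Q and R167Q against wildtype, with Lhx6 not called (adjusted p = 0.144 and 0.0654), and 5368, 2952 and 15 of all genes. With each array left out in turn the 8 gave 7 to 8, 7 to 8 and 0 calls in these comparisons, and all genes gave 5073 to 6953, 2328 to 4916 and 5 to 21, the 2328 without R167Q replicate 1.

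Over all genes, R167Q against wildtype gave 17 calls, and 11 without dim genes, 28 with every probe set, 26 with the compared groups alone, 42 with array weights and 9 after subtraction of the pan-neuronal mean. P81S against R167Q gave 4234, and 2419 without P81S replicates 3 and 4 and 13449 after that subtraction, which gave 15323 for P81S against wildtype, where 6530 were called. Median centring split the P81S against R167Q calls into 2836 higher and 1371 lower, against 2333 and 1901. Leaving out P81S replicates in pairs and the subtraction were chosen after seeing the data. Signal over background is unknown, which limits the folds of dim genes such as Dlx6 and Lhx6.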
